A study of Mus musculus with 8 samples.

Results

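Troponin is the calcium switch of striated muscle, and its 3 subunits are encoded by 8 mouse genes: troponin C by Tnnc1 and Tnnc2, troponin I by Tnni1, Tnni2 and Tnni3, and troponin T by Tnnt1, Tnnt2 and Tnnt3. Each of the 8 was found by its gene name among the 20976 genes of the deposited table. RNA came from satellite cells, the stem cells of skeletal muscle that express Pax7, which were sorted by flow cytometry from Chd4 LoxP/LoxP mice and grown for a short time in medium with 20% FCS and 5 ng/ml bFGF. The 4 Cre libraries came from cells given an adenovirus with Cre recombinase, which deletes exons 12 to 21 of the chromatin remodeller Chd4. The 4 GFP libraries came from cells of the same genotype given an adenovirus with GFP. Each condition used 4 mice, per the series' design text, and the age of the mice is not given in the sources used here. Both groups carry the loxP alleles and adenovirus, and no Cre library from cells without the loxP alleles is analysed here, so effects of Cre and of Chd4 loss cannot be told apart.

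Troponin C binds calcium, troponin I holds the thin filament in its blocked state at rest, and troponin T anchors the complex to tropomyosin. Slow skeletal fibres use Tnnc1, Tnni1 and Tnnt1, fast fibres use Tnnc2, Tnni2 and Tnnt3, and the heart uses Tnnc1, Tnni3 and Tnnt2. Embryonic skeletal muscle and cultured myotubes are known to make slow and cardiac forms beside fast ones, and dividing myoblasts make little of any of them.

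The values, called scaled reads here, are numbers of reads per gene after scaling and rounding before deposit. Their totals lay between 27897860 and 28876348 per library. Chd4, the deleted gene, lay between 3686 and 5480 scaled reads in Cre and between 15904 and 20121 in GFP, so the groups did not overlap. Libraries with the same number in both groups resembled each other: over all tested genes, the correlation of their departures from the group mean was 0.82 to 0.908, against -0.597 to 0.477 for other combinations. Xist was at 40670 to 49984 scaled reads in replicates 1 and 4 and at 2 to 12 in replicates 2 and 3 of both groups, and Ddx3y was at 0 to 4 and at 3141 to 3823. The equal numbers were therefore taken as pairs. Results are given without the pairing (unpaired, the main model) and with the replicate number as a block (paired), in limma on log2(value + 1).

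Within the troponin C genes, Tnnc1 was abundant and few reads were counted for Tnnc2. Tnnc1, the slow and cardiac form (ENSMUSG00000091898, GRCm38 chromosome 14, 31208312 to 31211729, plus strand), had 10766, 30135, 24434 and 14265 scaled reads with Cre, in the order of replicates 1 to 4 used throughout, and 7980, 24641, 21798 and 9389 with GFP. Replicates 2 and 3 were high and replicates 1 and 4 low in both groups, and the groups overlapped. The Cre mean was 19900 ± 8954 and the GFP mean 15952 ± 8491 (SD, n = 4 per group), a log2 difference of 0.37 that did not pass the unpaired test (SE 0.46, limma adjusted p = 0.747). Within pairs Tnnc1 rose in 4 of 4 (SE 0.06, limma with the block, adjusted p = 0.00104). These are whole cultures, so a larger share of cells that make a transcript and more of it per cell cannot be told apart.

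Tnnc2, the fast form (ENSMUSG00000017300, chromosome 2, 164777161 to 164779741, minus strand), stood at 1, 1, 7 and 5 scaled reads in Cre and at 0, 5, 0 and 4 in GFP. No library exceeded 7 reads, and the gene did not reach the filter of 1 CPM, so it was not tested and no fold is given. Of its exonic length in GENCODE M21, 74% (592 bases) is shared with exons of Ube2c, a gene of the mitotic ubiquitin pathway on the other strand. Ube2c held 1017 to 3474 scaled reads. The libraries were stranded, per the labels, but whether the counting used strand is not given in the sources used here, so the level of Tnnc2 is uncertain.

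The 250 bases before the RefSeq start (GRCm38.p6) are shown for both troponin C genes, the abundant one and the one with few counted reads. Capitals mark the E-box CANNTG, which myogenic factors bind, and the MCAT motif CATTCC, which TEAD factors bind, on either strand. They lie at chr14:31208062-31208311 (plus strand) and chr2:164779735-164779984 (minus strand).
Tnnc1: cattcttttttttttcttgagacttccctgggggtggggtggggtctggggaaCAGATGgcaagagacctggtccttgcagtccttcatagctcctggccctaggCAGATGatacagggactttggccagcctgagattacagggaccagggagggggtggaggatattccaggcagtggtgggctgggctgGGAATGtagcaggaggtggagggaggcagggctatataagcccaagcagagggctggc
Tnnc2: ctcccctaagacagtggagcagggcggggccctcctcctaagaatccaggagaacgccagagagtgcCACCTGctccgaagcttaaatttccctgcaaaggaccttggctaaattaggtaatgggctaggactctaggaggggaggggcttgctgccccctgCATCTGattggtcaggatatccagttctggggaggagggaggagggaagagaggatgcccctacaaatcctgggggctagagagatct
Both windows hold 2 E-boxes, and that of Tnnc1 also holds 1 MCAT match.

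Among the troponin I genes the slow form predominated. Tnni1 (ENSMUSG00000026418, chromosome 1, 135799402 to 135810989, plus strand) stood at 8895, 33312, 27127 and 14123 scaled reads in Cre and at 6063, 27535, 23928 and 8728 in GFP. The highest GFP library was 4.54 times the lowest, while the Cre mean of 20864 ± 11297 was close to the GFP mean of 16564 ± 10743 (SD, n = 4 per group). The log2 difference of 0.43 did not pass unpaired (SE 0.59, limma adjusted p = 0.782) and passed with the block (SE 0.08, adjusted p = 0.00121, higher in 4 of 4 pairs). Tnni2, the fast form (ENSMUSG00000031097, chromosome 7, 142441808 to 142444410, plus strand), stood at 503, 1143, 1245 and 694 in Cre and at 350, 989, 1035 and 479 in GFP. It showed the same split, with replicates 2 and 3 above replicates 1 and 4 in both groups. Its log2 difference was 0.38 (SE 0.43, limma adjusted p = 0.716 unpaired, SE 0.07 and adjusted p = 0.00166 paired, higher in 4 of 4 pairs).

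Tnni3, the cardiac form (ENSMUSG00000035458, chromosome 7, 4518305 to 4522528, minus strand), was low, at 52, 47, 40 and 97 scaled reads in Cre and at 11, 35, 28 and 56 in GFP. Replicate 4 was the highest in both groups, unlike for the other tested troponin genes, and the groups overlapped. The log2 difference of 0.96 was the largest of the tested members (SE 0.50, limma adjusted p = 0.379 unpaired, SE 0.28 and adjusted p = 0.0169 paired, higher in 4 of 4 pairs). Its paired SE was also the largest of the 7. It rested in part on pair 1, with 52 against 11 reads: without that pair the paired log2 difference was 0.57. Tnni3 reached 1 CPM in 4 Cre and 2 GFP libraries, so it passed the filter through the Cre libraries alone.

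The troponin T genes were all abundant. Tnnt1, the slow form (ENSMUSG00000064179, chromosome 7, 4504570 to 4516004, minus strand), stood at 6671, 16670, 14898 and 11637 scaled reads in Cre and at 3255, 12065, 10189 and 6826 in GFP. Replicate 1 was lowest and replicate 2 highest in both groups, and every Cre library lay above its GFP partner. The Cre mean was 12469 ± 4392 and the GFP mean 8084 ± 3881 (SD, n = 4 per group), a log2 difference of 0.70 (SE 0.44, limma adjusted p = 0.466 unpaired, SE 0.08 and adjusted p = 7.53e-05 paired). Tnnt3, the fast form (ENSMUSG00000061723, chromosome 7, 142498836 to 142516008, plus strand), stood at 3990, 14444, 14108 and 8184 in Cre and at 2433, 11366, 10707 and 5578 in GFP. Its highest library held 5.94 times the reads of its lowest, and its log2 difference was 0.50 (SE 0.58, limma adjusted p = 0.724 unpaired, SE 0.06 and adjusted p = 9.86e-05 paired, higher in 4 of 4 pairs).

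Tnnt2, the cardiac and embryonic form (ENSMUSG00000026414, chromosome 1, 135836354 to 135852260, plus strand), varied least, at 13429, 19984, 15736 and 14776 scaled reads in Cre and at 11701, 17947, 14674 and 10743 in GFP. Its highest library was 1.86 times its lowest, against 3.56 to 8.82 times for the other tested members. The log2 difference of 0.23 was the smallest of the 7 (SE 0.18, limma adjusted p = 0.586 unpaired, SE 0.06 and adjusted p = 0.00906 paired, higher in 4 of 4 pairs). The windows before the starts of Tnni1 (chr1:135799171-135799420) and Tnnt2 (chr1:135836084-135836333), both on the plus strand, are shown because these neighbours on chromosome 1 differed so much in spread, with capitals as above.
Tnni1: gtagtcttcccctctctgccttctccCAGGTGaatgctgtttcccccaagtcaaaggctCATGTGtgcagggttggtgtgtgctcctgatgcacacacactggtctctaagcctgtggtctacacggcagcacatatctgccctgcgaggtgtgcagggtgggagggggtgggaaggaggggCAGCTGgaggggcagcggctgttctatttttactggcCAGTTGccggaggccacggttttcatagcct
Tnnt2: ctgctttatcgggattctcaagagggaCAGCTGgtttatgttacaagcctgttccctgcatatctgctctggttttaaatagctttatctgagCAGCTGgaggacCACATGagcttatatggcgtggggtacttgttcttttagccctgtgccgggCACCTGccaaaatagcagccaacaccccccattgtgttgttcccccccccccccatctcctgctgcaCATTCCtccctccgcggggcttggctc
Each of the 2 windows holds 4 E-boxes, and that of Tnnt2 holds 1 MCAT match.

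**Figure D1:**
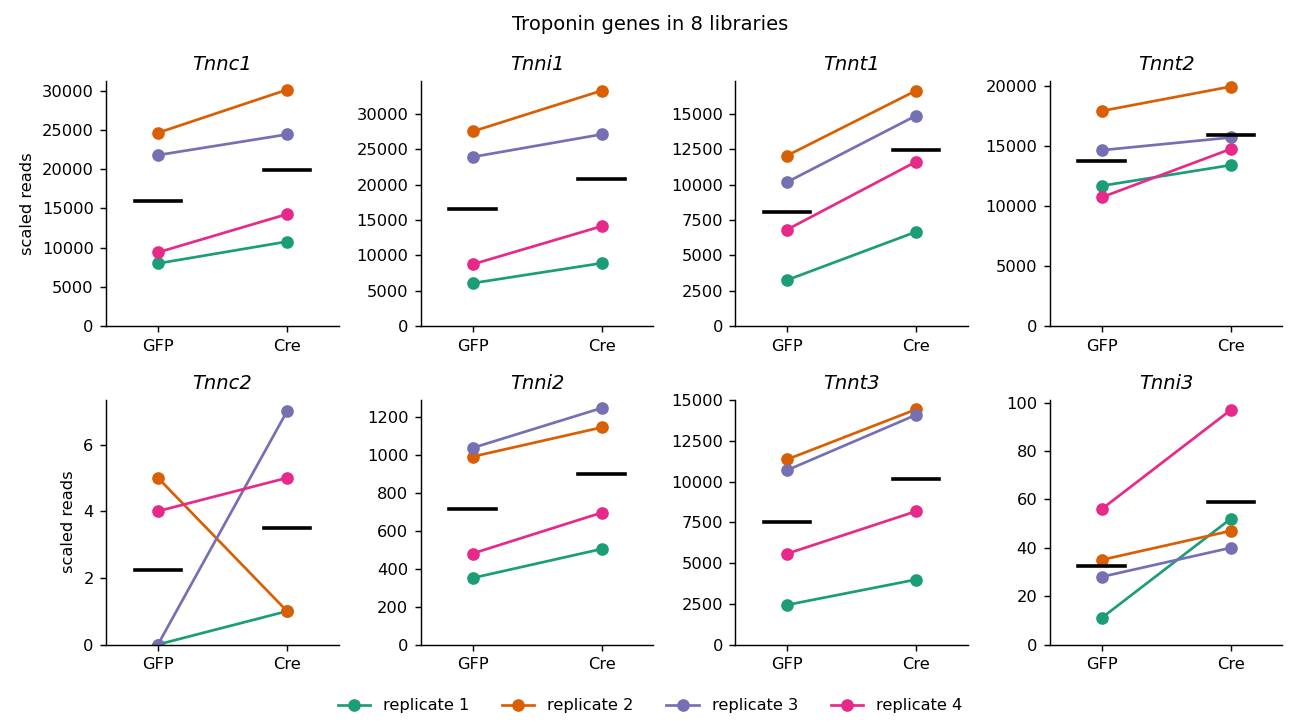
Scaled reads of the 8 troponin genes (vertical axis, from 0, with its own range in each panel) in the 4 GFP and 4 Cre libraries. Points are libraries, lines join equal replicate numbers and black bars are group means; the lines rise in all 4 pairs for every gene except Tnnc2, whose values lie between 0 and 7.

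In the unpaired model 0 of the 7 tested troponin genes passed (limma, adjusted p from 0.379 to 0.782), 0 passed at an unadjusted p under 0.05, and 0 passed with voom. Over all 12910 genes tested this model called 1.08%, with 0.837% higher and 0.248% lower in Cre. In the paired model 7 of 7 were higher, also with voom, or 6 of 6 without Tnni3, which passed the filter through the Cre libraries alone, where 43.9% of all tested genes were called, 22.2% higher and 21.7% lower. The median log2 difference was 0.43 over the 7 genes and -0.00 over all tested genes. The Cre libraries stood above their partners in 4 of 4 pairs for 7 of 7 tested members, as for 27.9% of all tested genes. The groups overlapped for every member, while 4.41% of all tested genes had all Cre libraries above all GFP libraries.

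The replicate number took a larger part of the sum of squares than the group for each of the 7 tested members. The replicate number has 4 levels and the group 2, so it takes a larger part even by chance. The parts were not divided by degrees of freedom. The replicate number accounted for 92.7% of the sum of squares of Tnni1 on the log2 scale and the group for 5.92%. Across the 6 tested members other than Tnni3 the share of the replicate number was 73.7 to 92.7%, against a median of 70.2% over all tested genes. For Tnni3 it was 48.1%, and the group took 34%. Replicates 2 and 3 lay above replicates 1 and 4 in both groups for 6 of 7 members, a pattern held by 13.2% of all tested genes and by 0 of 10 proliferation genes. These are also the replicates with low Xist and with Ddx3y reads, and the part of the sex of the mice in this pattern was not tested.

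**Figure D2:**
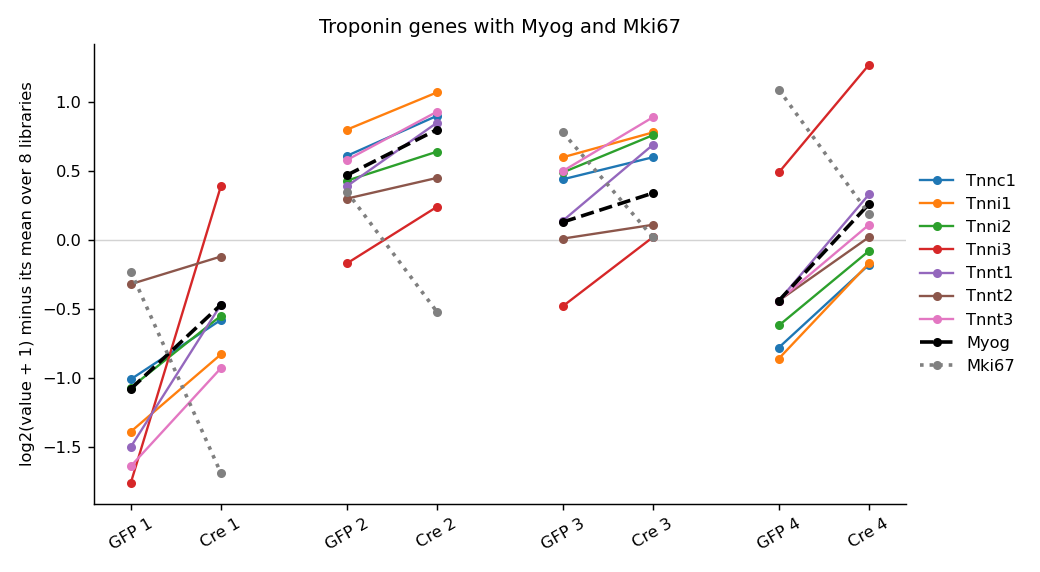
Profiles of the 7 tested troponin genes, of the differentiation factor Myog (dashed) and of the proliferation marker Mki67 (dotted) as log2(value + 1) minus the gene's mean over the 8 libraries, with each GFP library beside the Cre library of the same number. Troponin genes and Myog rise from GFP to Cre in each of the 4 pairs and Mki67 falls in each.

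The change within pairs was not even. It was larger in pairs 1 and 4 than in pairs 2 and 3 for 7 of 7 tested members, an order found in 13.5% of all tested genes. For Tnnt1 the log2 change was 1.04, 0.47, 0.55 and 0.77 in pairs 1 to 4, and for Tnni1 0.55, 0.27, 0.18 and 0.69. Pairs 1 and 4 are those in which the GFP libraries held the fewest reads of the 6 members other than Tnni3. Tnni2 had the narrowest range, from 0.21 in pair 2 to 0.53 in pair 4, and Tnni3 the widest, from 0.42 in pair 2 to 2.14 in pair 1. This order of the pairs was noticed in the data and was not tested.

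**Figure D3:**
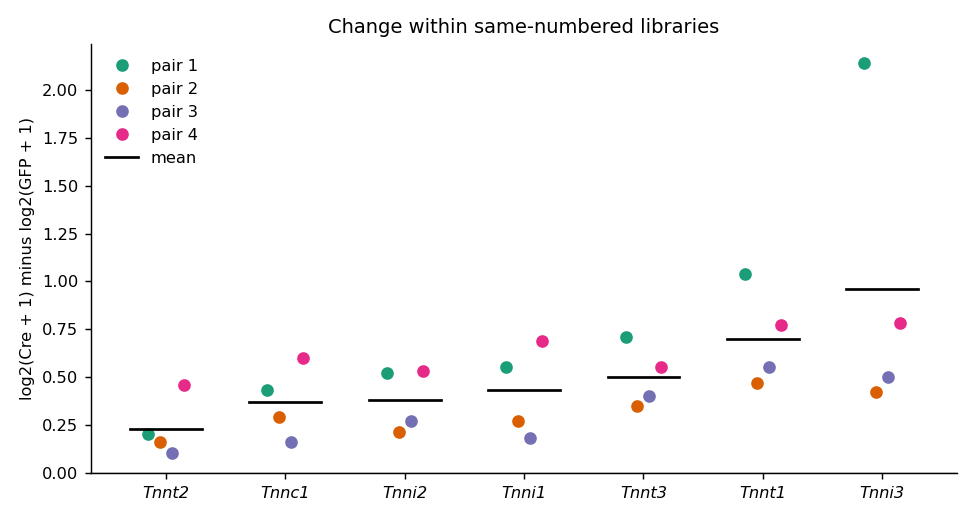
Log2 change from GFP to Cre within each pair (points) and the mean over the 4 pairs (bars) for the 7 tested troponin genes, ordered by the mean. All points lie above 0, and for each gene pairs 1 and 4 lie above pairs 2 and 3.

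To compare genes with each other, scaled reads were expressed as CPM of the library total and divided by the length in kilobases of the longest principal protein-coding transcript in GENCODE M21. On this scale Tnnc1 led with 963 ± 431 in Cre and 786 ± 422 in GFP (SD, n = 4 per group). Tnni1 followed with 633 ± 341 and 512 ± 334, then Tnnt2 with 465 ± 79.7 and 407 ± 99, Tnnt1 with 424 ± 148 and 280 ± 136, and Tnnt3 with 353 ± 174 and 265 ± 151. Tnni2 was far lower, at 40.8 ± 16.2 and 33 ± 16.3, and Tnni3 lower again, at 2.26 ± 0.976 and 1.27 ± 0.728. Tnnc2 was last, at 0.175 ± 0.151 and 0.115 ± 0.134, a level that is uncertain because of the exons shared with Ube2c. Tnnc1 was first, and Tnni2, Tnni3 and Tnnc2 were the last 3, in 8 of 8 libraries, also with the length of the union of all annotated exons. The neighbours Tnni1 and Tnnt2, Tnnt2 and Tnnt1, and Tnnt1 and Tnnt3 changed places in at least 1 library, and with the exon union the order of these 4 genes became Tnnt3, Tnni1, Tnnt1 and Tnnt2.

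Summed per subunit on the same scale, troponin C reached 963 ± 431 in Cre and 786 ± 422 in GFP, troponin I 676 ± 356 and 546 ± 350, and troponin T 1241 ± 390 and 952 ± 375. Troponin C exceeded troponin I by 1.34 to 1.93 times across the libraries, and troponin T exceeded troponin I by 1.48 to 2.67 times. Troponin T exceeded troponin C by 1.08 to 1.62 times with transcript lengths, but was 0.59 to 0.90 times troponin C with the exon union, so their order depends on the length used.

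The slow form made up most of troponin I. Tnni1 supplied 91.6 to 95% of troponin I reads per transcript length, Tnni2 4.88 to 7.94% and Tnni3 0.138 to 0.8%. In troponin T no form had such a lead: Tnnt1 supplied 33.7 ± 2.53% in Cre and 28.3 ± 5.13% in GFP, Tnnt2 39.3 ± 8.78% and 45.7 ± 12.1%, and Tnnt3 27 ± 6.67% and 26 ± 7.31% (SD, n = 4 per group). GFP library 1 stood apart, with 63.6% Tnnt2 and 20.7% Tnnt1. With the exon union the share of Tnnt2 was 16 ± 5.43% in Cre and 20.1 ± 8.94% in GFP, so shares within troponin T depend on the length used, while differences of log2 ratios between the groups do not.

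**Figure D4:**
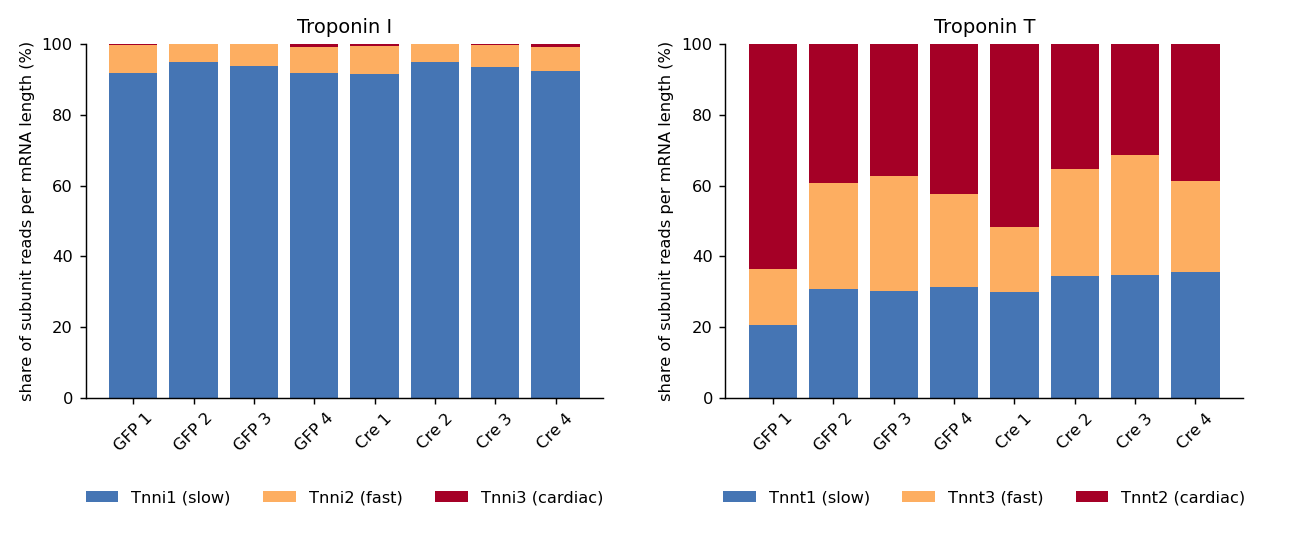
Share (%) of each form in the reads per transcript length of troponin I (left) and troponin T (right), 1 bar per library, coloured by the fibre type that uses the form. Tnni1 fills 91.6% or more of each troponin I bar, while the Tnnt2 part of troponin T ranges from 31.5% in Cre library 3 to 63.6% in GFP library 1.

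Whether the balance of forms differed between the groups was asked with 5 log2 ratios of values within a library, each by a two-sided exact permutation test over samples (70 arrangements, smallest possible p 0.0286). The adjusted p over the 5 was 0.857 for each. A single differing ratio could not have gone below an adjusted p of 0.143, so the lack of calls says little about the balance. The ratio of Tnnt2 to Tnnt1 averaged 0.42 ± 0.41 for Cre against 0.90 ± 0.63 for GFP (SD, n = 4 per group, exact p = 0.286), and it was lower in Cre in 4 of 4 pairs, by 0.31 to 0.84. Without GFP library 1 the difference of -0.48 became -0.16, but that fit keeps its Cre partner, which had the highest Cre ratio (1.01). Within pair 1 the difference was -0.84, and within pairs 2 to 4 it was -0.31, -0.45 and -0.31. The ratio of Tnnt3 to Tnnt1 was -0.38 ± 0.30 and -0.18 ± 0.22 (exact p = 0.343), lower in 4 of 4 pairs, by 0.12 to 0.32. Tnni3 against Tnni1 was -8.34 ± 1.23 and -8.88 ± 1.12 (exact p = 0.543), higher in 4 of 4 pairs. For these 3 ratios the exact sign-flip test over the 4 pairs gave p = 0.125, the smallest that 4 pairs can give. Tnni2 against Tnni1 differed by -0.04 (exact p = 0.857), with 1 pair higher and 3 lower. The ratio of Tnnc2 to Tnnc1 (difference 0.30, exact p = 0.771) rests on 0 to 7 reads of Tnnc2.

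RefSeq promoter windows were at hand for 6 of the 8 members, and for Tnni1 and Tnnt2, with 2 starts each in the table, the window nearest the gene start of the deposited table was read. Matches to the E-box were found in all 6 windows, 4 each in Tnni1 and Tnnt2, 2 each in Tnnc1 and Tnnc2, and 1 each in Tnnt1 and Tnni3. Of 32851 windows of the same length in the whole table, 66.2% hold at least 1 E-box. The MCAT motif was matched in Tnnc1, at bases -58 to -53 from the start, and in Tnnt2, at -27 to -22, and occurs in 12.6% of all windows. TATAAA was matched in Tnnt1, at -30 to -25, and occurs in 12.4%. The MEF2 consensus and the CArG box, which bind MEF2 factors and Srf, had 0 matches in the 6 windows and occur in 2.92% and 1.47% of all windows. Motifs were searched on both strands. A match describes letters in the window and is no evidence of binding.

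**Figure D5:**
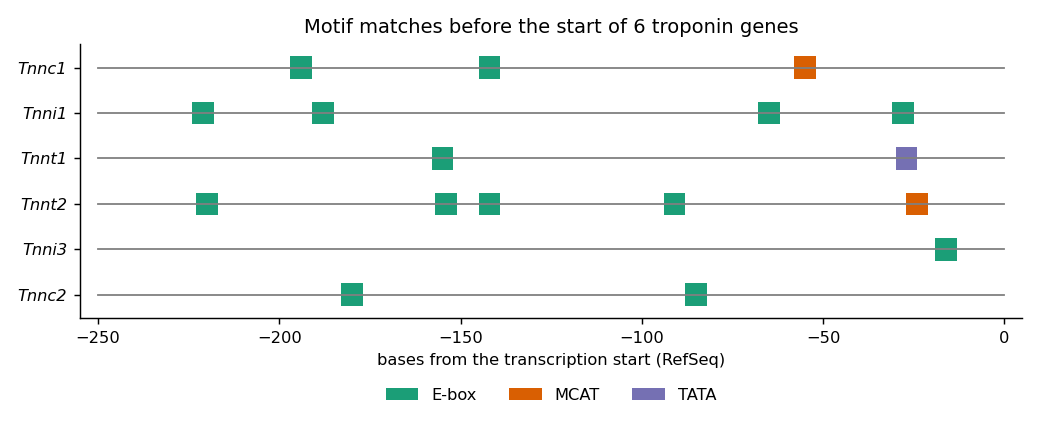
Positions of E-box, MCAT and TATA matches in the 250 bases before the RefSeq start of 6 troponin genes (horizontal axis, bases from the start at 0). Tnni1 and Tnnt2 hold 4 E-boxes each, and Tnnc2, for which few reads were counted, holds 2, as Tnnc1 does.

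The troponin I and T genes lie in pairs in the genome. Tnni1 and Tnnt2 are 25364 bases apart on chromosome 1, Tnnt1 and Tnni3 are 2300 bases apart on chromosome 7, and Tnni2 and Tnnt3 are 54425 bases apart elsewhere on chromosome 7. A locus can thus hold forms of different fibre types: the slow Tnnt1, with 3255 to 16670 scaled reads, lies beside the cardiac Tnni3, with 11 to 97. Of 29 other genes within 50 kb of a member, 22 were tested. Without the block 0 were called. With it, 4 were higher, 1 was lower and 17 were not called, a smaller share called than among all tested genes (22.2% higher, 21.7% lower). The median log2 difference of the 22 was 0.08. The 4 that rose with the block were Syt5, a synaptotagmin 17237 bases from Tnni3, by 2.03 (limma adjusted p = 5.23e-05), Syt8 by 0.52, Acot8 by 0.34 and Nisch by 0.13 (adjusted p from 0.0273 to 0.0442). Ube2c, which overlaps Tnnc2, fell by 0.58 (adjusted p = 0.000145). Lad1, which lies between Tnni1 and Tnnt2, had a log2 difference of 0.08 (adjusted p = 0.678), and Lsp1, between Tnni2 and Tnnt3, had 0.08 (adjusted p = 0.228).

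Other genes of the thin filament mostly moved the same way in pairs. Of 15 tested, 11 were higher and 2 lower with the block, against 22.2% and 21.7% of all tested genes. Without the block 0 were called (1 higher at an unadjusted p under 0.05), and the median log2 difference was 0.32. Actn3, the fast-fibre alpha-actinin of the Z-disc, had the smallest unpaired p of the list, with 12070 ± 1971 in Cre and 8089 ± 2568 in GFP (log2 difference 0.61, limma adjusted p = 0.213 unpaired, 0.000396 paired). Tmod1, which caps the pointed ends of actin filaments, rose by 0.36 in the paired model (limma adjusted p = 0.00775). The tropomyosins, to which troponin T binds, did not move together: Tpm2 rose by 0.14 (paired adjusted p = 0.0306), Tpm1 fell by 0.13 (0.0459) and Tpm3 differed by -0.11 (0.122). Nebl, which encodes nebulette, was the other gene that fell, by 0.26 (limma paired adjusted p = 0.0134).

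Thick filament genes were called higher in 12 of 17 tested with the block and lower in 0, against 22.2% and 21.7% of all tested genes. Without the block 0 were called (0 also at an unadjusted p under 0.05), and the median was 0.28. Myom3, an M-band protein, had a log2 difference of 0.51, the giant spring protein Ttn 0.52 and the light chain Myl1 0.44 (limma paired adjusted p from 0.000217 to 0.00187). Replicates 2 and 3 lay above replicates 1 and 4 in both groups for 17 of 17 thick filament genes, as for 6 of the 7 troponin genes. This order was held by 9 of 15 other thin filament genes, by 6 of 18 regulators and by 13.2% of all tested genes.

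Partners of the troponin forms were listed by fibre type, and some are also in the filament lists above. These are Actn3, Myl1, Mylpf, Myh4, Myh1 and Myh2 of the tested fast genes and Tpm3, Myl2, Mybpc1 and Myh7 of the slow. The counts are therefore not independent of those above. Of 11 fast fibre genes tested, 8 were called higher in the paired model and 3 were not called, with a median of 0.47. Besides Actn3, the phosphoglycerate mutase Pgam2 differed by 0.58 and the calcium pump Atp2a1 by 0.60 (limma paired adjusted p = 0.00032 and 0.000372). Of 11 slow fibre genes, 4 were called higher and 7 were not called, with a median of 0.26. Among all tested genes this model called 22.2% higher and 21.7% lower. Atp2a2, the slow and cardiac calcium pump, differed by 0.12 and the Z-disc protein Myoz2 by 0.37 (limma paired adjusted p = 0.0375 and 0.0128), while Myh7, the slow myosin heavy chain, differed by 0.03 (0.759). Casq2 had the smallest paired adjusted p of the slow list, with a difference of 0.33 (limma, 0.00113). The 3 uncalled fast genes were Myh4, Myh2 and Ampd1 (limma paired adjusted p from 0.0749 to 0.194). Without the block 0 were called in either list, and 1 fast and 0 slow genes passed at an unadjusted p under 0.05. The slow troponins Tnnt1, Tnni1 and Tnnc1 rose in the paired model. The difference between the 2 lists was not tested.

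Regulators of these genes gave 11 calls higher, 3 lower and 4 uncalled among 18 tested in the paired model. That model called 22.2% of all tested genes higher and 21.7% lower. The unpaired model gave 0 calls among the regulators (3 higher at an unadjusted p under 0.05), and their median was 0.18. Sox6, a factor known to repress slow fibre genes, was at 260, 231, 178 and 515 scaled reads in Cre and at 121, 143, 82 and 232 in GFP. Its log2 difference was 1.01 (limma adjusted p = 0.256 unpaired, 5.7e-05 paired, higher in 4 of 4 pairs). Mef2a and Mef2d, MADS-box activators of muscle genes, differed by 0.34 and 0.17 (limma paired adjusted p = 0.000412 and 0.0187). Myog, which drives terminal differentiation, differed by 0.46 (paired adjusted p = 0.000726). Srf and Tead1, which bind CArG and MCAT motifs, and the early myogenic factor Myf5 fell by 0.31, 0.21 and 0.57 (limma paired adjusted p = 0.00229, 0.0239 and 0.000124). Tead4, another TEAD factor, rose by 0.28 (limma paired adjusted p = 0.0019), so the 2 listed TEAD genes moved in opposite directions.

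Genes outside the family with the most similar profile were ranked by Pearson's r with each of the 7 tested members over the 8 libraries, as a description: the libraries share pairs, and the same division of replicates enters every r. The highest mean r was reached by Marveld2 and Hrc (0.876 each), followed by Bgn, Myog and Bex1 (0.875 each). Hrc encodes a calcium-binding protein of the sarcoplasmic reticulum and Bgn the matrix proteoglycan biglycan. For single members the closest were Tmem38a, a cation channel of the sarcoplasmic reticulum, for Tnni1 (0.998), Ncf1 for Tnnc1 (0.998) and Inpp4b for Tnnt1 (0.997). B3galt5 was closest to Tnnt3 (0.995), the activin antagonist Fst to Tnnt2 (0.988) and Nod2 to Tnni3 (0.969). Among the members, Tnni1 and Tnnc1 were most alike (0.996), and Tnni3 reached 0.191 to 0.581 with the other 6.

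Markers were read to place these cultures. All 9 satellite cell markers were in the table and 8 were tested, of which 2 (Myod1 and Des) were higher with the block and 3 (Pax7, Vcam1 and Myf5) lower. Among all tested genes 22.2% were higher and 21.7% lower with the block. Pax7 lay between 4381 and 6704 scaled reads and Myod1 between 30708 and 47778, so both troponin and stem cell transcripts were present. All 10 proliferation genes fell in the paired model (0 in the unpaired, 5 lower at an unadjusted p under 0.05), with a median of -0.77. Among them, Mcm4 fell by 0.59, Pcna by 0.68 and Ccna2 by 0.96 (limma paired adjusted p from 4.79e-06 to 3.2e-05). Of the 12 heart muscle genes listed, 7 were in the table and 3 were tested, Gata4, Myl4 and Sln. Gata4 and Myl4 were called higher with the block, and embryonic skeletal muscle also makes Myl4. The summed level of the 7 genes was 310 to 924 CPM in Cre and 267 to 819 CPM in GFP. Most of it was Myl4 (mean scaled reads 14524 in Cre and 12198 in GFP). Myh6, the heart's myosin heavy chain, had 3 to 22 scaled reads and Nppb 0 to 9. Nppa, Nkx2-5, Tbx5, Myl7 and Myl3 are not analysed here.

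Markers of other cell types moved with the groups as well. Fibroblast markers summed to 208 to 331 CPM in Cre and 117 to 224 CPM in GFP, mostly through Gsn (mean scaled reads 5756 against 3766). With the block 4 of 5 tested were higher, and Pdgfra was not called (122 against 119, limma adjusted p = 0.825). The same model called 22.2% of all tested genes higher and 21.7% lower. Without the block 2 were higher, Col1a1 (12.5 ± 4.36 in GFP, 250 ± 95.6 in Cre) and Ly6a. Dcn, a defining fibroblast gene, had 1 to 22 scaled reads. Smooth muscle and pericyte markers summed to 1972 to 3051 CPM and 875 to 1623 CPM, mostly through Rgs5 (mean scaled reads 36372 against 8646), which was called in both models. Of the 5 tested, 2 were higher with the block. Acta2 (29084 against 29166, log2 difference 0.01) and Tagln (0.06) were not called, and Myh11 had 2 to 9 scaled reads. Endothelial markers reached 14.3 CPM at most (1 of 2 tested higher with the block, Cdh5 at 1 to 9 scaled reads). Blood cell markers reached 16 CPM (1 of 1 higher, Itgam at 0 to 7) and Schwann cell markers 14.3 CPM (1 of 2 higher). Some markers too low to test were higher in Cre: Kdr had 14 to 46 scaled reads in Cre and 2 to 14 in GFP. Csf1r had 16 to 59 and 7 to 35, and Cnn1 7 to 18 and 0 to 1. Cdh5, with 5 to 9 and 1 to 8, and Myh11, with 5 to 9 and 2 to 9, overlapped between the groups. The deposited table holds no gene at 0 in every library, so presence in it says little about a marker. It held 6 of 8 listed fibroblast markers and 7 of 7 smooth muscle and pericyte markers. Of the other lists it held 5 of 6 endothelial, 4 of 7 blood cell and 4 of 5 Schwann cell markers. The part of these markers, and of the fall in proliferation genes, in the troponin differences was not tested.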

How the data were processed

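RNA of 8 libraries, 4 Cre and 4 GFP, was analysed from a single deposited table of 20976 genes. Per the submitters' processing notes, the authors used STAR 2.5.3a, featureCounts 1.5.3, Subread and DESeq, with mm10 and GRCm38 as builds. Their settings, the annotation and the strand use in counting were not given in the sources used here. Each deposited value was handled as a score and not as a raw count: library totals and median-ratio factors (1.000 to 1.011) were nearly equal, and up to 7 of the whole numbers from 1 to 40 were held by no gene in a library, as scaling and rounding leave behind. The original depth is therefore not given, and a few reads carry large counting error. Reads are not independent molecules.

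Groups and replicate numbers came from the titles. The test was the one laid down for scaled values: limma 3.58.1 (R 4.3.3), its prior variance following mean intensity, fitted to log2(value + 1), which understates changes of low genes. A gene was tested where at least 4 libraries reached 1 CPM of the library total, which left 12910 genes. Two-sided p-values were adjusted over all of these (Benjamini-Hochberg) and called under 0.05. The main model had no block. The pairing is not stated in the labels and was read from the values, with correlations of 0.82 or more in every pair. Unpaired p-values set a difference against the spread between libraries within a group. Paired p-values set it against the spread left after the replicate number is taken out. Both cover these libraries only. Ratios were tested with an exact permutation test in Python 3.11.15.

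Named genes were all 8 members, up to 3 genes of each list with the smallest unpaired p, the genes most alike in profile (predicted and clone genes passed over), and genes within 50 kb. Some genes that this rule names are not reported here. Other genes of a list were named after their values were seen. These include the tropomyosins, Nebl, Myh7, Casq2, the uncalled fast fibre genes, Myog, Srf, Tead1, Tead4, Myf5 and low or defining markers. The members and lists were chosen with earlier results of these data known. Exon and transcript lengths came from GENCODE M21, whose gene coordinates equal those of the table for 3 of 8 members, and promoter windows from RefSeq on GRCm38.p6. Alternatives varied the pseudocount (0.1, 10), the filter (none, 5 CPM), the scaling, voom weights, the block and single libraries or pairs.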

Additional observations from a re-analysis of the deposited data

Results flagged for a closer look

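The log2 ratio of Tnnt2 to Tnnt1 in GFP library 1 was 1.85, while the other 3 GFP libraries lay at 0.53, 0.57 and 0.65. The gap to the nearest library took 0.903 of the range of the group. The same library had the fewest Tnnt1 reads of all, 3255, beside 11701 of Tnnt2, and its Cre partner had the highest ratio of the Cre group, 1.01. Of 26 groups of 4 values examined in this way, 1 stood out, and chance picks about 1 in 20.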

How the results depend on the processing

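The replicate block moved the count of called genes from 140 to 5665 and that of troponin genes from 0 to 7. The filter of 5 CPM gave 85 called genes without the block, and leaving out a single library gave 1 to 58, with fewer samples and a broken pair in each such fit. The troponin count stayed 0 in all 15 other unpaired alternatives. With the block, 7 troponin genes were called in 10 of 11 alternatives, and 6 with the filter of 5 CPM, which Tnni3 does not reach. Paired adjusted p-values over these alternatives were at most 0.0012 for Tnnt1, 0.0364 for Tnnt2 and 0.0464 for Tnni3, whose log2 change ranged from 0.57 to 1.14. Alternatives with the block other than voom and left-out pairs, and the exon union lengths, were chosen after seeing the data. Leaving out a single library moved the unpaired log2 difference of Tnni1 from 0.43 to between 0.03 (without GFP replicate 1) and 0.77 (without Cre replicate 1), that of Tnnt3 from 0.50 to between 0.04 and 0.90 for the same libraries, and that of Tnnc1 from 0.37 to between 0.10 (without GFP replicate 1) and 0.64 (without GFP replicate 2). The difference between the groups in the log2 ratio of Tnnc2 to Tnnc1 was 1.56 with a pseudocount of 0.1. It reversed to -0.23 with a pseudocount of 10, -0.05 without Cre replicate 4 and -0.32 without GFP replicate 3. The difference for Tnni2 to Tnni1 reversed to 0.10, 0.06 and 0.03 without Cre replicate 2, GFP replicate 1 and GFP replicate 4. Over all left-out libraries these differences ranged from -0.32 to 0.86 and from -0.17 to 0.10. The cause was not tested. At 0 to 7 reads no difference in Tnnc2 was detectable.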

Other observations

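Another gene of heart muscle was split by replicate number. Ryr2, the calcium release channel of the heart, had 384 scaled reads in Cre library 4 and 473 in GFP library 4 and 0 to 2 in the other 6 libraries. Tnni3 was also highest in replicate 4 of both groups, with 97 and 56 scaled reads, while Myh6 was not, with 13 and 8 in replicate 4 and up to 22 elsewhere. The fibroblast gene Dcn was at 17 and 22 scaled reads in replicate 1 and at 1 to 3 in the other replicates, and Cd68, of macrophages, was highest in replicate 1 with 396 in Cre and 243 in GFP, where 6 of the 7 tested troponin genes had their lowest Cre value.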
